A study of Arabidopsis thaliana with 6 samples.

Results

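GIGANTEA (GI, AT1G22770) is a single gene of Arabidopsis thaliana, 1 of the 13355 genes that a probe set with 1 annotated gene stood for on these arrays. It was chosen because its probe set differed between the days of drought in an earlier look at the same data. Its day values and the sizes of its daily steps are therefore given as a description, with no test. GI was measured by 1 probe set. RNA came from unopened flower buds of anac019-1 plants, which carry the T-DNA insertion SALK_096295 in the Col-0 background, and all of them were under drought. They grew under 16 h of light and 8 h of dark, water was withheld after 24 days of growth, when the main stem had just bolted, and about 80 hours later, on day 3, the soil held near 35% of its water capacity and was kept there. The sampling days were 3, 4 and 5 of drought, at plant ages of 28, 29 and 30 days from germination. Each day had 2 arrays, 6 in all.

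Every group shared the mutation and the drought. Wild-type and watered buds were not analysed here, so days of drought and plant age cannot be told apart. The labels do not say whether the 2 arrays of a day came from separate pots or plantings, so p-values cover only the variation among these arrays, and part or all of it may be technical. They also do not give the hour at which buds were taken, and a difference in hour between the days could not be told apart from the day.

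GI is a large plant-specific protein of the circadian clock, and in leaves and seedlings its transcript is known to cycle each day with a peak late in the light period. The protein stabilises the blue-light receptor ZEITLUPE and, with the related receptor FKF1, removes the CDF repressors of CONSTANS, which in long days turns on the florigen gene FT. GI is also known from seedling and leaf work to act in drought escape, the earlier flowering of plants short of water, in which abscisic acid takes part.

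The deposited values are log2 levels per probe set, so a difference of 1 is a 2-fold change in signal. On day 3 the GI probe set read 5.96 in replicate 1 and 5.73 in replicate 2. On day 4 it read 8.37 and 8.12, and on day 5 it read 9.32 and 9.31. The order of the levels was day 3, day 4, day 5 from low to high, and no array of a day overlapped with those of another day.

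The day means were 5.85 ± 0.16, 8.25 ± 0.17 and 9.32 ± 0.01 (SD, n = 2 each). GI was 2.40 ± 0.14 (SE) higher on day 4 than on day 3, a 5.27-fold difference. It was 1.07 ± 0.14 (SE) higher on day 5 than on day 4, and 3.47 higher over the whole interval, or 11.1-fold. The highest array of one day and the lowest of the next were 2.16 apart at the first step and 0.94 at the second, against gaps between the replicates of a day of 0.23, 0.24 and 0.01. Arrays in rising order over the 3 days without overlap were found for 6.3% of the 22746 probe sets tested, which is given only as a background, since GI was chosen for this order.

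In log2 units the larger part of the GI difference was thus in place on day 4. The first step exceeded the second by 1.33 ± 0.23 (SE) on the log2 scale and was 2.24 times as large. By day 4 GI had covered 69.1% of its log2 difference between day 3 and day 5. The pooled SD of GI within days was 0.14, close to the median of 0.13 over all tested probe sets.

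**Figure D1:**
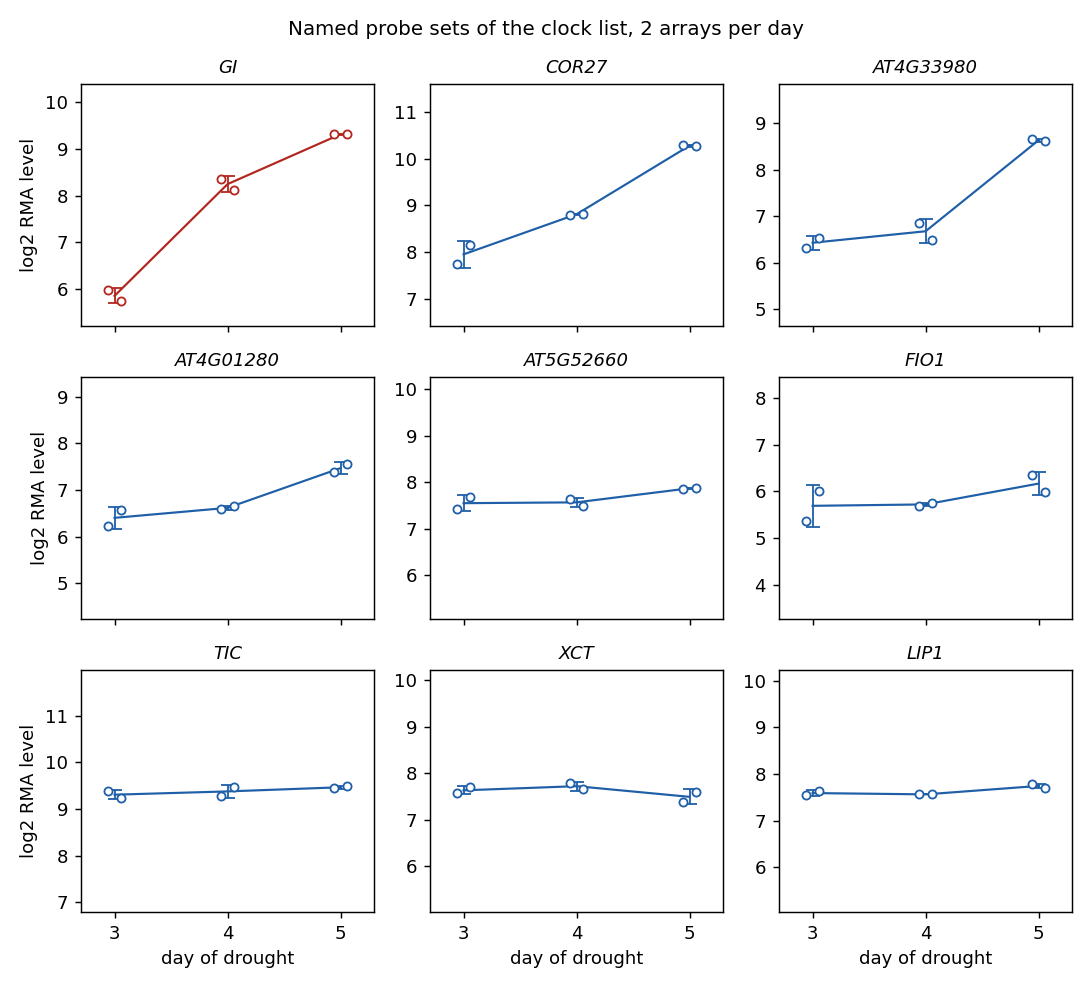
Log2 level (vertical axes, each spanning the same range around the gene's own mean) of the 9 measured genes of the clock list against day of drought. Circles are single arrays, lines join day means and bars are the SD of 2 arrays. GI climbs from about 5.85 to 8.25 and 9.32, COR27 and AT4G33980 are highest on day 5, and TIC, XCT and LIP1 stay near their day 3 level in the deposited scaling.

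The scaling of the arrays bears on the second GI step more than on the first. Poly-A spike-in controls, bacterial transcripts that serve as a spiked reference, averaged 6.51 and 6.38 on the day 3 arrays, 6.46 and 6.64 on day 4, and 7.03 and 6.87 on day 5. With arrays centred on these controls the first GI step was 2.29 and the second was 0.67, so day 4 then held 77.3% of the log2 difference. This centring moved the median change of all probe sets to -0.11 at the first step and -0.44 at the second, and only 7.69% of the probe sets passing at the second step were then higher, against 47.3%. The amount of control added is not recorded here, so every change stands against the rest of its array and is no absolute amount. GI stayed highest on day 5 and lowest on day 3 under this and every other scaling that was run, which were cyclic loess and centring on the array median, and without any 1 array.

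**Figure D2:**
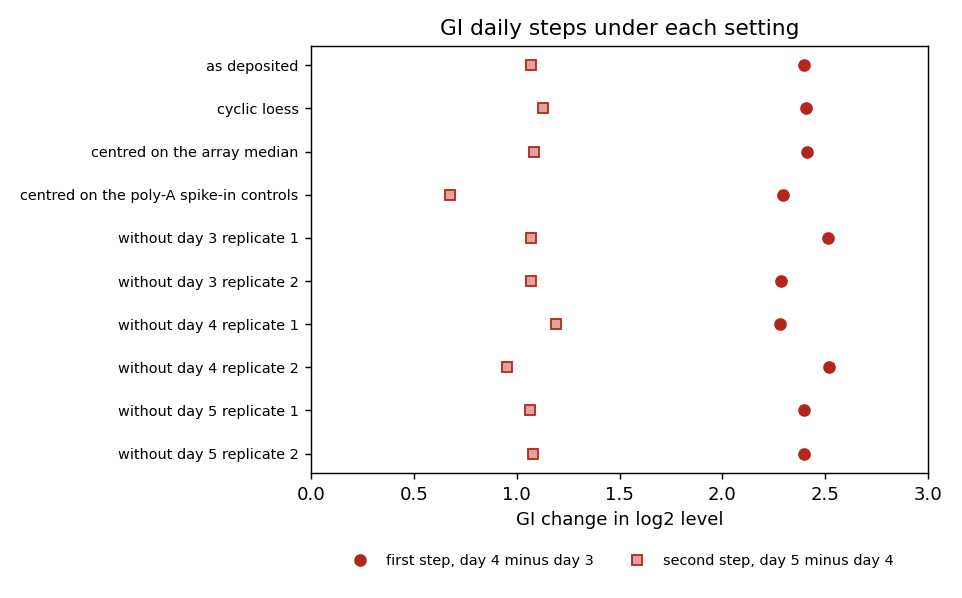
GI change in log2 level (horizontal axis) for the first step (circles) and the second step (squares) under each scaling and with each array left out. The first step stays between 2.28 and 2.52 and the second between 0.67 and 1.19.

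Among other transcripts that were much higher at the end, few had covered so much of the log2 distance by day 4. In all, 78 probe sets with 1 gene, GI included, were at least 2 higher on the log2 scale on day 5 than on day 3. Their median share reached by day 4 was 15.7%, with quartiles at 3.61% and 31.9%. GI ranked 5 by this share. The rank is a description with no test, since GI was chosen for its day pattern. Genes that rose early but ended less than 2 higher are outside this set. The 4 probe sets above it were AT4G33550 (105%), AT3G53980 (93.8%), AT2G37870 (83.2%) and AT3G51750 (75.8%), and only 7 of the 78 had a share above 50%.

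A change of at least 1 at both daily steps was found for 14 probe sets with 1 gene, or 0.104% of them. GI and AT1G16850, with steps of 1.90 and 1.67, had the larger step first, and the other 12 had the larger step second. No test stands behind this count, since GI belongs to the set through the pattern it was chosen for. For AT1G16850 second minus first step was -0.23 ± 0.38 (SE), so the order of its steps is not established.

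**Figure D3:**
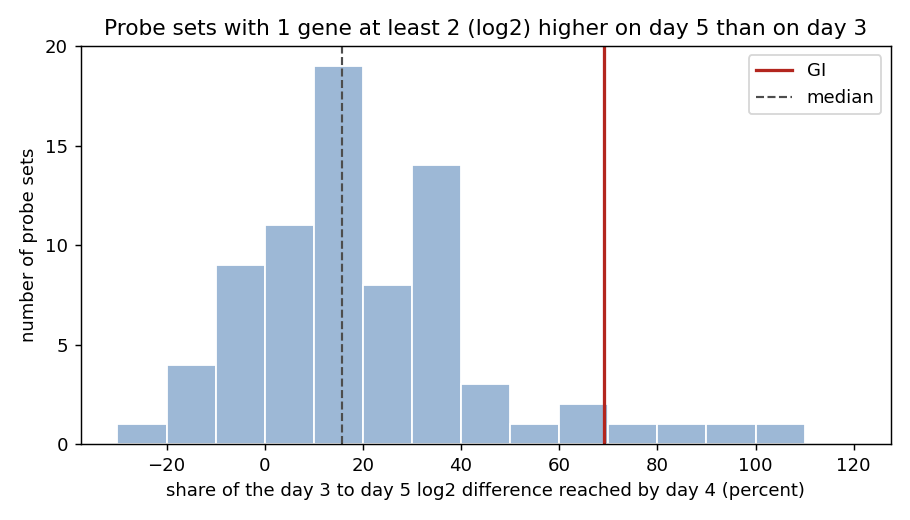
Number of probe sets (vertical axis) by the share of their log2 difference between day 3 and day 5 that was reached on day 4 (horizontal axis, percent), for the 78 probe sets with 1 gene at least 2 higher on day 5. AT3G15450 (-36.2%) and AT4G27450 (-45.0%) lie below the plotted range and are not drawn. The dashed line is the median, 15.7%, and the solid line is GI, at 69.1%.

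The linker histone gene HIS1-3 and the dehydration genes, picked for this comparison from earlier results of the same data, are described beside GI. HIS1-3 (AT2G18050), a histone H1 variant induced by water deficit, read 4.83 and 4.98 on day 3, 7.92 and 6.70 on day 4, and 12.36 and 12.49 on day 5. Its first step, 2.40, was as large as that of GI, and its second was 5.12 against 1.07. The day 4 arrays of HIS1-3 lay further apart than those of GI, which differed by 0.24.

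The late embryogenesis abundant gene LEA4-5 had steps of 1.78 and 3.05, and the dehydrin gene LTI30 of 2.34 and 3.03, with day 3 arrays of LTI30 at 3.98 and 5.90. The dehydrin gene COR47 had steps of 0.36 and 0.97. COR15A, which encodes a protective protein of the chloroplast stroma, read 11.75 and 12.05 on day 3, 12.87 and 12.86 on day 4, and 12.69 and 12.75 on day 5. COR15A was the only one of these 5 genes with the larger step first, as in GI, but its steps were 0.97 and -0.15. Second minus first step was 2.71 ± 0.58 (SE) for HIS1-3, 1.27 ± 0.44 for LEA4-5, 0.69 ± 0.90 for LTI30, 0.61 ± 0.45 for COR47 and -1.11 ± 0.23 for COR15A. With centring on the spike-in controls this difference was 2.42 for HIS1-3 and -1.41 for COR15A. The 5 genes were picked from earlier results of the same data, so no test of these differences is given. The order of their steps is a description and is not established.

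**Figure D4:**
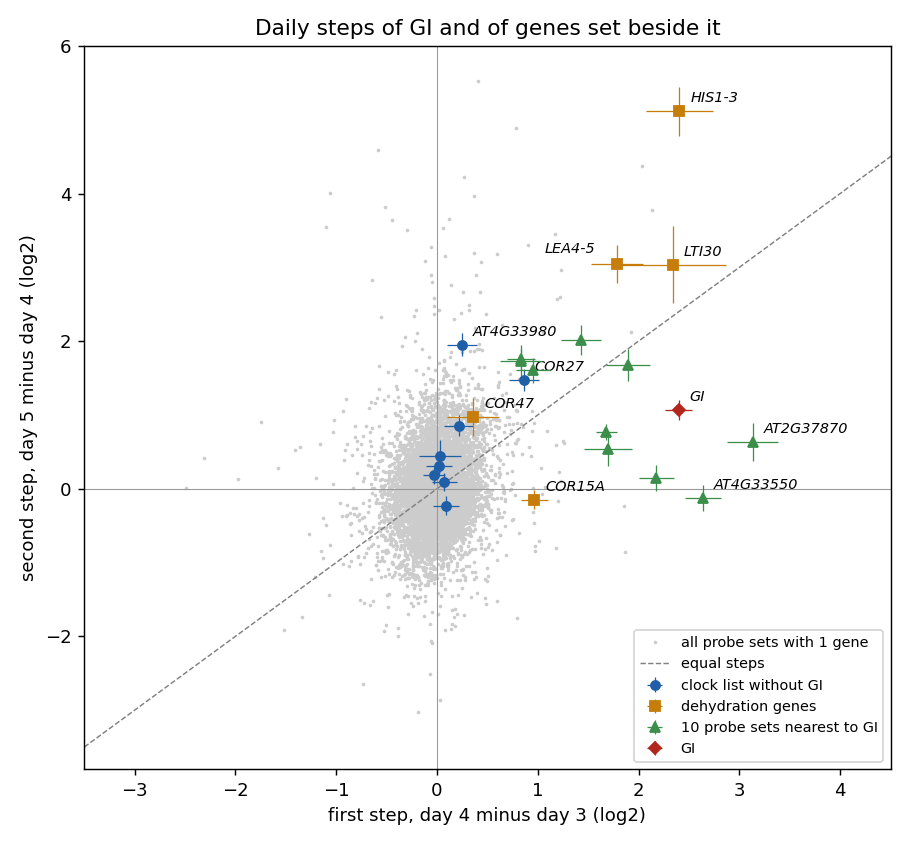
Second step (day 5 minus day 4, vertical axis) against first step (day 4 minus day 3, horizontal axis) in log2 units, with limma standard errors as bars. Grey points are all probe sets with 1 gene and the dashed line marks equal steps. GI lies below the line at 2.40 and 1.07, while COR27 and HIS1-3 lie above it.

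Other genes of the clock were set beside GI from a list of 50 oscillator and clock-regulating genes. Only 9 of them, GI included, had a named probe set, and CCA1, LHY, TOC1, the PRR genes, ELF3, ELF4, LUX, ZTL, FKF1, CO and FT were not analysed here. Of the 8 measured genes other than GI, 0 passed between day 3 and day 4 at a limma adjusted p of 0.05, where 0.501% of all tested probe sets did, and 1 had an unadjusted p below that value, against 9.17% of all. Between day 4 and day 5, 3 rose and none fell, where 22.1% of all probe sets passed (10.4% higher and 11.6% lower). With arrays centred on the spike-in controls 2 rose and 1, XCT, fell at this step, and 3 rose and 1 fell over the whole interval. In the deposited scaling 3 rose and none fell from day 3 to day 5, where 28.8% of all passed, 12.9% higher and 15.9% lower. The median change of the 8 genes was 0.08 at the first step and 0.38 at the second, against -0.0047 and -0.04 for all tested probe sets.

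COR27 (AT5G42900), a cold- and light-regulated gene that feeds back on the clock and on flowering, was the clock gene nearest to GI in its profile. It read 7.75 and 8.15 on day 3, 8.80 and 8.82 on day 4, and 10.30 and 10.27 on day 5, and no arrays overlapped between days. COR27 rose by 1.47 ± 0.15 (SE), or 2.77-fold, from day 4 to day 5 (limma adjusted p = 0.000954). Its first step was 0.86 ± 0.15 and did not pass (adjusted p = 0.0682), though it did under cyclic loess (adjusted p = 0.0459). The steps of COR27 did not differ from each other past the threshold (second minus first 0.61 ± 0.25, adjusted p = 0.279), so the order of their sizes, which is the reverse of GI, is not established. It had covered 36.9% of its log2 difference by day 4.

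A pair of clock-list loci for which the gene table gives no symbol also rose at the second step. The list entered AT4G33980 as COR28 and AT4G01280 as RVE5. AT4G33980 read 6.32 and 6.54 on day 3, 6.86 and 6.49 on day 4, and 8.66 and 8.61 on day 5. The arrays of days 3 and 4 overlapped, and AT4G33980 rose by 1.95 ± 0.15, or 3.87-fold, from day 4 to day 5 (limma adjusted p = 0.000346). Its second step exceeded its first by 1.71 ± 0.26 (adjusted p = 0.0244), a comparison that 1.93% of all probe sets passed, 1.41% with the second step above the first. That call was lost whichever array was left out, with adjusted p between 0.0529 and 0.298.

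AT4G01280 read 6.23 and 6.57 on day 3, 6.58 and 6.65 on day 4, and 7.38 and 7.56 on day 5. AT4G01280 rose by 0.85 ± 0.14 at the second step (limma adjusted p = 0.00623). The call was lost with centring on the spike-in controls (adjusted p = 0.0571) and without either day 4 array (adjusted p = 0.0511 without replicate 2, and just over the threshold without replicate 1).

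The remaining 5 clock-list genes did not pass at either step in the deposited scaling. FIO1, an RNA methyltransferase whose mutants have a long circadian period, ranged from 5.37 to 6.34 over the 6 arrays, with its day 3 arrays at 5.37 and 6.01, and passed between day 3 and day 5 only without day 3 replicate 2 (0.79, adjusted p = 0.0235). TIC, a nuclear regulator of clock amplitude, ranged from 9.24 to 9.49. XCT, the XAP5 circadian timekeeper, ranged from 7.38 to 7.79, and passed at the second step, with a change of -0.63, only with centring on the spike-in controls (adjusted p = 0.0138). The level of LIP1, a small GTPase that sets the clock's period, lay between 7.55 and 7.78. AT5G52660 differed by 0.30 ± 0.13 at the second step (limma adjusted p = 0.14), and passed between day 3 and day 5 under cyclic loess (adjusted p = 0.0488). A level change of these genes within that spread was not detectable with 2 arrays a day.

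Of the 56 genes on the list of GI partners and photoperiodic flowering, 7 were measured. At the first step limma called 0 of the 7, where 0.501% of all probe sets passed (2 of the 7 at an unadjusted p below 0.05, against 9.17% of all). At the second step 1 rose and none fell, where 22.1% of all passed, so the count is no result about this list. AT1G69570 rose by 0.63 ± 0.12 at the second step (limma adjusted p = 0.00839), from 6.40 and 6.29 to 7.03 and 6.92, a call lost with centring on the spike-in controls (adjusted p = 0.256) and without day 4 replicate 2 (adjusted p = 0.0817). Between day 3 and day 5, where 28.8% of all passed, 1 rose and 1 fell. AT1G69570 was 0.76 ± 0.12 higher (adjusted p = 0.00269), a call lost with centring on the spike-in controls (adjusted p = 0.208), and AT2G34140 fell, with a log2 change of -0.60 ± 0.14 (adjusted p = 0.0174), a call that did not hold without day 3 replicate 1 or without either of the day 5 arrays. At the second step AT2G34140 changed by -0.18 (limma adjusted p = 0.441). With centring on the spike-in controls that change was -0.58 and passed (adjusted p = 0.0138). The list entered AT1G69570 as CDF5 and AT2G34140 as CDF4. Both are printed by locus because the gene table does not give these symbols.

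The measured partners of GI itself were not called. SPY, an O-fucosyltransferase that binds GI, read between 8.18 and 8.73, and its replicate 2 was the higher array on each day. EEL, a bZIP factor that binds DNA together with GI, read between 5.80 and 6.39, and EEL had a lower level on day 5 past the threshold only with centring on the spike-in controls. Among genes further down the pathway, FD, the bZIP partner of FT, read 4.09 and 4.12 on day 4 against 3.70 and 3.77 on day 3, near the lower end of the scale, and differed by 0.37 ± 0.11 (limma adjusted p = 0.328). At the second step FD differed by -0.31 ± 0.11 (adjusted p = 0.0979). With centring on the spike-in controls that change was -0.71 and passed (adjusted p = 0.0040). The AP2-type flowering repressor genes SMZ and SNZ differed by less than 0.30 at both steps in the deposited scaling. With centring on the spike-in controls SNZ passed at the second step (-0.55, limma adjusted p = 0.0171) and between day 3 and day 5 (-0.56, adjusted p = 0.0104). SNZ read 3.33 to 3.58, near the lower end of the scale, and in the deposited scaling these changes were -0.15 and -0.06.

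For light signalling 1 of 31 listed genes was measured and for clock output 2 of 22, and limma called 0 of them at a single step, where 0.501% and 22.1% of all probe sets passed. At the first step HYH and RCA had an unadjusted p below 0.05, as had 9.17% of all probe sets, and both fell over the whole interval, where 15.9% of all did. HYH, a bZIP relative of the photomorphogenesis factor HY5, fell between day 3 and day 5, by a log2 change of -0.54 ± 0.14 (limma adjusted p = 0.0266). HYH no longer passed when replicate 2 of day 3 or day 5, or either of the day 4 arrays, was left out. RCA, the Rubisco activase gene, read 13.08 and 13.00 on day 3, 12.45 and 12.59 on day 4, and 12.31 and 12.28 on day 5, and fell over the whole interval by a log2 change of -0.74 ± 0.11 (adjusted p = 0.00261). PWD, the phosphoglucan water dikinase gene of starch breakdown, ranged from 9.59 to 9.89 and differed by 0.28 (adjusted p = 0.0861). None of the 21 listed abscisic acid genes linked to drought escape had a named probe set, so they were not analysed here.

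A further 9 genes were found by words for light or flowering in their annotated names. At the first step limma called 0, with 0 at an unadjusted p below 0.05 (0.501% and 9.17% of all probe sets). At the second step 1 rose and 1 fell, a share close to the 22.1% of all probe sets. FHL, which carries phytochrome A into the nucleus, rose by 0.80 ± 0.15 (limma adjusted p = 0.00839), from 5.09 and 4.96 to 5.64 and 6.01, a call lost with centring on the spike-in controls and without day 4 replicate 2. LHCB4.3, an antenna protein gene of photosystem II, fell by a log2 change of -0.53 ± 0.15 (adjusted p = 0.0416), a call lost under cyclic loess and without any 1 array except day 5 replicate 1. Its relatives LHCB4.1 and LHCB4.2 differed by -0.19 and 0.15. SHB1, AFR, DNF, PHL and BLUS1 differed by 0.34 or less at either step in the deposited scaling. With centring on the spike-in controls AFR and LHCB4.1 passed at the second step (-0.59 and -0.58, limma adjusted p = 0.0107 and 0.0126).

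The probe sets most like GI were found by the root mean square difference of their 6 values from those of GI, each taken around its own mean, over 13512 other probe sets with 1 gene. The nearest 10 were, in this order, AT1G16850, AT2G37870, AT1G80130, AT2G41190, AT3G51750, AT4G33550, AT3G53980, AT3G03170, AT5G43150 and AT5G50360, and the gene table gives none of them a symbol. Their differences from GI were 0.35 to 0.65 on the log2 scale. COR27 followed at rank 13, with 0.68, and AT4G33980 at rank 69. They were picked for their values, so no test is given.

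AT1G16850 read 6.19 and 6.65 on day 3, 8.62 and 8.03 on day 4, and 10.04 and 9.96 on day 5. AT2G37870 read 7.02 and 6.60, then 10.34 and 9.55, then 10.55 and 10.61. AT1G80130 read 7.36 and 7.43, then 9.09 and 9.05, then 9.83 and 9.86. Of these, AT1G80130 came closest to GI in shape, with 68.5% of its log2 difference reached by day 4 and steps of 1.68 and 0.77. AT4G33550 and AT3G53980 stopped after day 4, with second steps of -0.12 and 0.14. In AT2G41190, AT3G03170, AT5G43150 and AT5G50360 the second step was the larger. Second minus first was 0.58 ± 0.35, 0.65 ± 0.29, 0.93 ± 0.24 and 0.90 ± 0.36 (SE) in that order. The order of their step sizes is a description and is not established.

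Ranking by Pearson's r over the same 6 arrays, which ignores the size of the change, kept only AT1G80130 of the 10 (r = 0.997). PWD was among the highest (r = 0.996) although its whole difference was 0.28. RCA ran opposite to GI (r = -0.990). The 6 points come in 3 days of 2 arrays and share their normalisation, so these coefficients only describe the shape.

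**Figure D5:**
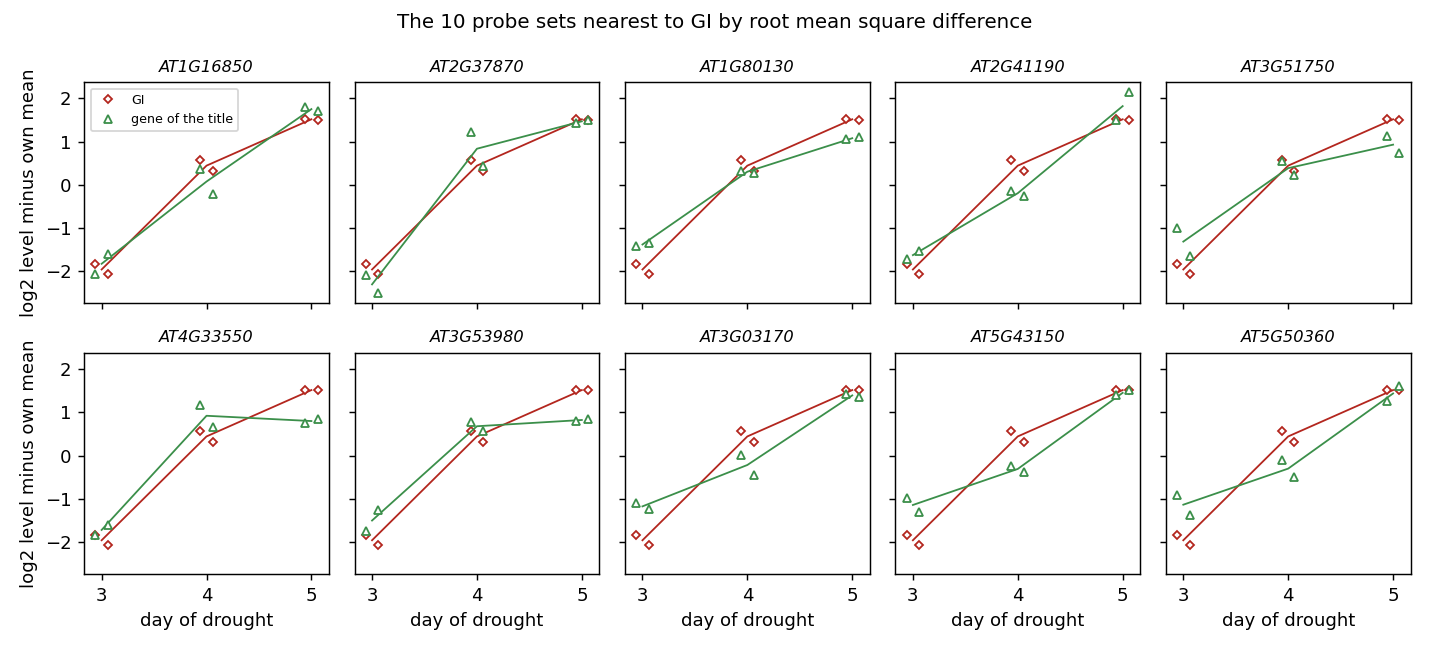
Log2 level minus the gene's own mean (vertical axes) against day of drought for the 10 probe sets nearest to GI (triangles) and for GI itself (diamonds). Symbols are single arrays and lines join day means. AT1G80130 follows the bend of GI, AT4G33550 and AT3G53980 flatten after day 4, and AT2G41190 keeps climbing.

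Some signals of tissue make-up and RNA quality differed between the days too. Late pollen genes averaged 6.95 to 7.17 on day 3, 7.24 to 7.28 on day 4 and 8.02 to 8.39 on day 5. Of 7 measured, 6 rose at the second step, where 10.4% of all probe sets did, while limma called 0 at the first, where 0.501% of all passed (2 at an unadjusted p below 0.05, against 9.17%). The 6 were the pollen maturation factor genes AGL66 (0.97) and AGL104 (1.06), the pollen tube receptor kinase gene ANX1 (0.89), the pollen actin gene ACT12 (0.91), the sperm cell histone gene MGH3 (0.93) and AT5G45880 (0.82), with limma adjusted p between 0.00233 and 0.0358. MGH3 no longer passed with centring on the spike-in controls or without any 1 of the day 4 and day 5 arrays, ACT12 without day 4 replicate 2, and AT5G45880 with that centring. At the first step MGH3 differed by 0.62 and AGL104 by 0.47. Of the pair of tapetum genes measured, SHT fell at the second step, from 10.63 and 10.59 to 9.24 and 8.32. The green tissue genes PSAN and SBPASE averaged 11.44 and 11.60 on day 3, 11.29 and 11.32 on day 4 and 10.80 and 10.69 on day 5, and both fell at the second step, where 11.6% of all probe sets fell. The PSAN call was lost without any 1 of the day 4 and day 5 arrays. That of SBPASE was lost under cyclic loess, and without either of the day 4 arrays or day 5 replicate 2. At the first step PSAN differed by -0.04 and SBPASE by -0.39 (limma adjusted p = 0.968 and 0.29), and the part of these markers in either step of GI was not tested. UFO, near the lower end of the scale at 3.92 to 4.17, was the only measured gene of the floral identity list, so the bud label could be checked only through the anther genes. In bulk RNA, fewer cells of a type and less RNA per cell cannot be told apart. The difference between 3′ and 5′ control probe sets was 2.23 in day 3 replicate 1 and 1.61 to 1.81 in the other arrays, and GI was 2.51 higher on day 4 than on day 3 without that array.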

How the data were processed

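Biotin-labelled RNA was hybridised to single-colour Affymetrix arrays. The authors deposited log2 values per probe set, made with RMA and the R package affy per the submitters' processing notes, without versions. RMA equalises array distributions and compresses changes of dim probe sets, so changes are relative to other transcripts. Detection calls and scan dates were not used here, and array number limits the precision. Of 22810 probe sets, 64 controls were left out and 22746 tested. Names came from the platform annotation, updated through RefSeq (TAIR10.1): 13513 probe sets had 1 gene (13436 matched), 503 several and 8730 none. The brightest probe set stood for a gene. Days were compared with limma 3.58.1 (R 4.3.3; lmFit, eBayes, 3 day means, 3 residual and 4.69 prior degrees of freedom), two-sided, with Benjamini-Hochberg adjustment over all tested probe sets and a threshold of 0.05. The code was tested on simulated data.

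GI, the lists, the naming rule and the alternatives were chosen with earlier results of these data known. All measured clock-list genes are named, members of other lists past the threshold or brightest, and the 10 probe sets nearest to GI. The list from annotated names and the dehydration genes were added after the annotation arrived. Replicate numbers were checked as pairs: deviations of same-numbered arrays correlated by 0.10, 0.15 and 0.38 between days. These values and the labels do not settle whether the numbers pair the samples, and the main fit did not pair them. Alternatives were other scalings, a low-value filter (mean under 5), single-gene probe sets, a trended robust prior, array weights, the 4 arrays of the days compared, the replicate block and leaving out each array.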

Additional observations from a re-analysis of the deposited data

How the results depend on the processing

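The GI steps kept their order of size under every scaling and every omission run. Centring on the spike-in controls gave a second step of 0.67 and a first minus second difference of 1.62. Without 1 array the first step ranged from 2.28 to 2.52, the second from 0.95 to 1.19 and their difference from 1.09 to 1.57. Of the 10 probe sets nearest to GI, 9 were kept under cyclic loess, 4 to 9 without 1 array (4 without day 3 replicate 2) and 1 when ranked by r. Whether the replicate numbers pair the samples was not settled. The replicate block left the GI steps at 2.40 and 1.07. For the first step, second step, whole interval and difference of the steps it gave 123, 5827, 7333 and 546 passing probe sets. It changed 1 count of the clock, photoperiod, light signalling, output and found-by-name lists. That was the count of genes found by name, which was 3 in place of 2 over the whole interval. Outside these lists, the late pollen gene ANX2 passed with the block at the second step (limma adjusted p = 0.0359). ANX2 also passed with it over the whole interval (adjusted p = 0.0355). In the same order of comparisons the main counts were 114, 5020, 6548 and 440. They were 205, 11929, 16041 and 784 with centring on the spike-in controls, and 46, 2548, 3439 and 161 with probe sets of 1 gene only, where fewer were tested. The difference of the steps gave 829 with array weights, and the first step gave 58 with only the 4 arrays of its days. Leaving out 1 array gave 15 to 58, 1366 to 5427, 3894 to 5375 and 34 to 408. For the gene lists, cyclic loess gave 1 clock gene (COR27) at the first step, 2 output genes and 4 of the genes found by name between day 3 and day 5, and 1 of the latter at the second step. Centring on the spike-in controls gave 4 photoperiod genes at the second step and 4 between day 3 and day 5, 1 light signalling and 1 output gene at the second step, and 5 of the genes found by name between day 3 and day 5. FD, at 0.06 between day 3 and day 5, changed sign to -0.44 and passed under that centring. Without 1 array the photoperiod list gave 0 to 1 gene at the second step and 1 to 2 between day 3 and day 5, the light signalling list 0 to 1, the genes found by name 0 to 2 at the second step and between day 3 and day 5, and the clock list 2 to 3 at the second step, 3 to 4 between day 3 and day 5 and 0 for the difference of the steps. The causes of these shifts were not tested. With 2 arrays a day, small changes were not detectable.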
